A study of Mus musculus with 27 samples.

Results

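The change from a resting B cell to a B cell given T-cell-like help was measured by comparing 3 libraries of naive B cells with 3 libraries of cells held for 24 h with anti-CD40, IL-4 and IL-21, which are 6 of the 27 libraries in the series. All cells were wild-type primary mouse B cells from spleen, and polyadenylated RNA was sequenced. The naive cells were neither cultured nor treated. The treated cells were kept in RPMI-1640 medium with serum and received the anti-CD40 antibody HM40-3 at 1 µg/mL, IL-4 at 12.5 ng/mL and IL-21 at 50 ng/mL together. Cells with anti-CD40 alone for 24 h, and for 6 h, served to define which naive-state transcripts were lost without cytokines, and cells with anti-CD40 plus a single cytokine for 24 h were set beside them. Because the naive cells were not cultured, culture and stimulation cannot be told apart in any comparison with them. The labels do not state if replicate libraries stem from different mice or cultures, and the p-values then reflect only how these libraries vary, possibly for technical reasons.

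CD40 is a receptor of the tumour necrosis factor receptor family on B cells, and CD40 ligand on helper T cells activates NF-kB through it. IL-4 acts mainly through the transcription factor STAT6 and IL-21 mainly through STAT3, and follicular helper T cells deliver both in the germinal centre. Resting B cells are held out of the cell cycle by factors such as KLF2 and FOXO1, circulate by way of CCR7 and sphingosine-1-phosphate receptors, and enlarge, divide and switch immunoglobulin class after help.

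The B-cell label was met in both groups: all 12 B-cell markers had a mean of at least 1 TPM (a relative transcript abundance corrected for transcript length), and their sum ran from 6944 to 11579 TPM in naive and from 6878 to 7173 TPM in treated libraries. Markers of other cells moved between the groups. All 10 erythroid and platelet markers summed to 1020 to 1804 TPM in naive and 11.3 to 23.0 TPM in treated libraries. The 12 macrophage and monocyte markers summed to 106 to 142 TPM against 1.42 to 2.51 TPM. The 15 T-cell markers summed to 14.1 to 26.0 TPM against 77.5 to 98.9 TPM, the largest share of the latter from Thy1, with Cd247 at 0 in all 6 libraries. The 9 marginal zone B-cell markers summed to 919 to 1077 TPM against 400 to 423 TPM, the 9 dendritic-cell markers to 55.9 to 73.4 TPM against 43.5 to 50.0 TPM, the 9 NK-cell markers to 3.63 to 4.46 TPM against 0.766 to 1.73 TPM, and the 10 neutrophil markers stayed at or under 0.855 TPM in these 6 libraries. In such bulk samples, fewer cells of a type and less RNA per cell cannot be told apart. Mitochondrial transcripts took 5.50% of naive replicate 1, 12.7% and 13.5% of naive replicates 2 and 3, and 6.97% to 8.04% of treated libraries, and the part of mitochondrial content in the results was not tested. Naive replicate 1 stands apart, and the counts below are also given without it.

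Of 12147 genes tested, 5553 differed between both cytokines at 24 h and naive cells (limma with Benjamini-Hochberg adjustment over all tested genes, called at an adjusted p below 0.05), which is 45.7%. There were 3888 genes higher (32.0%) and 1665 lower (13.7%), and 3659 genes (30.1%) differed at least 2-fold on the log2(TPM + 1) scale used for every difference here. The median difference of all tested genes was 0.33. Rescaling the libraries by median-of-ratios brought that median to 0.03 and the split to 2873 higher and 2833 lower. Leaving out mitochondrial, ribosomal protein and pseudogene transcripts brought it to 0.13, with 2921 higher and 2315 lower. Differences up to about 0.40 carry no firm direction, since that of Irf4, at 0.40, turned to -0.003 under median-of-ratios rescaling. Without naive replicate 1 there were 4348 higher and 1440 lower. The 3 naive and 3 treated libraries did not overlap for 6794 genes (55.9%).

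The largest rises included Nfil3, Cish, Slpi and Klhdc2, with immunoglobulin genes passed over in this ranking. Nfil3 (ENSMUSG00000056749, chr13:52967209-52981073, GRCm38), a basic leucine zipper transcription factor, was at 0.515, 0.331 and 0.412 TPM in naive and 248, 251 and 245 TPM in treated libraries. It rose by 7.46 ± 0.28 (log2 difference ± SE, n = 3 per group in the limma fit, adjusted p = 5.12e-15). Cish, which encodes a STAT-induced feedback inhibitor of cytokine signalling, was at 1.64, 0.431 and 0.314 TPM against 113, 109 and 111 TPM. The naive and treated libraries lay far apart for both genes. Slpi, a secreted inhibitor of serine proteases, was at 18.3, 11.6 and 6.48 TPM in naive and 651, 772 and 680 TPM in treated libraries, a rise of 5.84 ± 0.32 (limma adjusted p = 2.07e-12). Klhdc2, a substrate receptor of a cullin ubiquitin ligase, went from 17.5, 12.8 and 13.7 TPM to 754, 712 and 701 TPM. Every treated library was far above every naive one for Slpi and Klhdc2.

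Thy1, a glycosylphosphatidylinositol-anchored surface protein used as a T-cell marker, was at 0, 0.122 and 0 TPM in naive and 69.7, 67.9 and 59.4 TPM in treated libraries. Lck, another T-cell marker, was at 9.56 to 21.6 TPM and 13.1 to 25.5 TPM in the same libraries and did not pass the test. The T-cell markers Cd3d, Cd3e, Cd3g, Cd4, Cd8a and Cd8b1 were at or under 0.327 TPM in every treated library, against up to 2.01 TPM in naive libraries. Cd4 and Cd8b1 were listed at 0 in all 3 treated libraries. Lat was at 0.328, 0.776 and 0.824 TPM in naive and 3.07, 3.88 and 3.08 TPM in treated libraries. Trac was at 0.942, 0.547 and 0.287 TPM against 3.24, 0.975 and 1.05 TPM. Of the 5 T-cell markers tested 3 rose and 1 fell, beside 32.0% and 13.7% of all tested genes. Ido1, the first enzyme of tryptophan breakdown along the kynurenine route, was at 0.0821, 0.097 and 0.146 TPM against 49.0, 42.4 and 46.7 TPM. The nonagouti gene, symbol a, was listed at 0 in all 3 naive libraries and at 35.3, 33.2 and 34.7 TPM in the treated ones. Neither Ido1 nor nonagouti overlapped between groups. The other members of the 12 largest rises were B3gnt7 (5.95 ± 0.45), which extends poly-N-acetyllactosamine chains, Dhrs3 (5.53 ± 0.28), a retinaldehyde reductase, Hyou1 (5.77 ± 0.54), a chaperone of the endoplasmic reticulum, the small GTPase gene Rab35 and the septin gene Sept2 (5.13 ± 0.63). Rab35 was at 2.79, 0 and 0 TPM in naive and 91.1, 117 and 102 TPM in treated libraries, so its difference depends on the pseudocount.

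**Figure D1:**
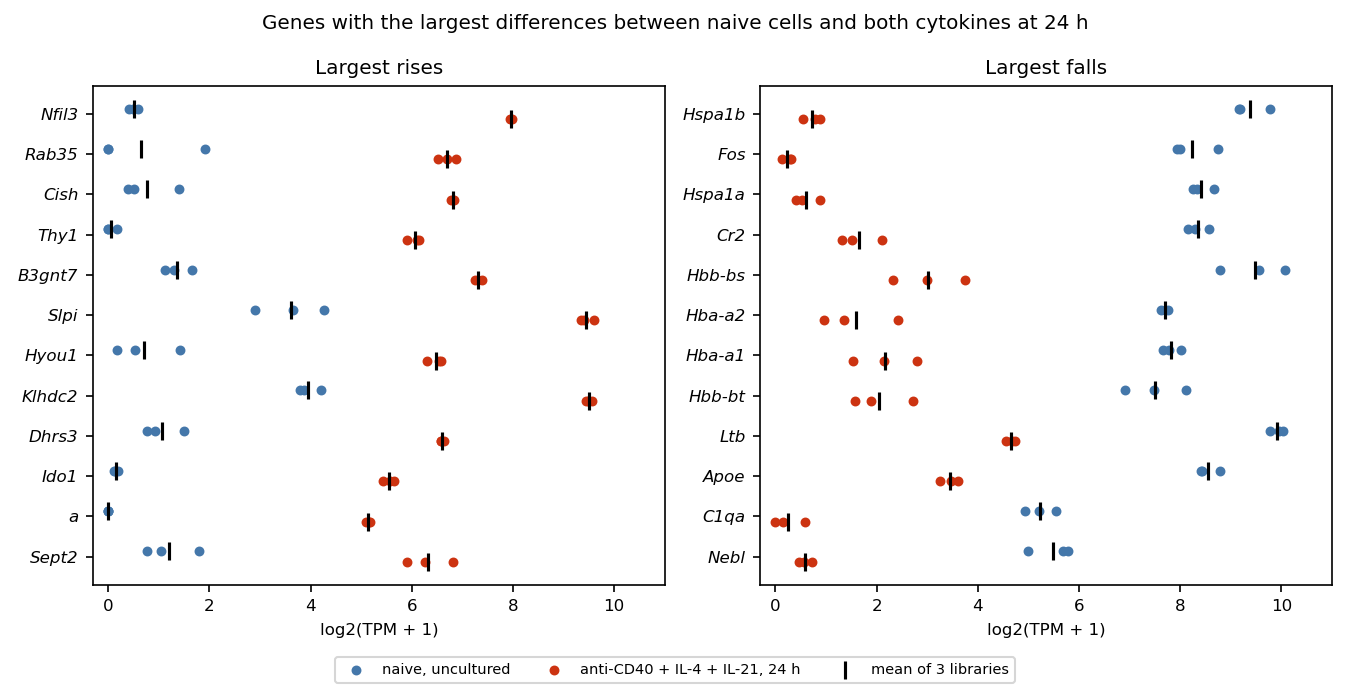
Levels of the 12 genes with the largest rises (left) and the 12 with the largest falls (right), on a log2(TPM + 1) axis, with 1 point per library and a vertical tick at the mean of 3 libraries. Naive libraries are blue and libraries with anti-CD40, IL-4 and IL-21 at 24 h are red, and no gene shown overlaps between the groups; Nfil3 lies near 0.4 TPM in naive and near 248 TPM in treated libraries.

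The largest falls held stress and immediate early genes, a complement receptor, a lymphoid cytokine and the globins. Hspa1b, an inducible HSP70 chaperone, was at 872, 570 and 581 TPM in naive and 0.455, 0.837 and 0.708 TPM in treated libraries, a change of -8.64 ± 0.28 (limma adjusted p = 6.03e-16). Fos, a subunit of the AP-1 transcription factor, was at 431, 246 and 253 TPM against 0.0912, 0.23 and 0.217 TPM. Both were abundant in every naive library and near 0 in every treated one, as was Hspa1a (-7.80 ± 0.30), a near-identical neighbour of Hspa1b whose reads may be shared with it. Cr2 (ENSMUSG00000026616, chr1:195136811-195176716), the complement receptor CD21 of mature and marginal zone B cells, was at 378, 314 and 285 TPM in naive and 3.29, 1.49 and 1.86 TPM in treated libraries, a change of -6.70 ± 0.31 (limma adjusted p = 1.94e-13). Ltb, which encodes the membrane-bound cytokine lymphotoxin beta, was at 1041, 989 and 878 TPM against 25.7, 22.4 and 24.6 TPM. The Cr2 and Ltb groups were separated by more than an order of magnitude. The remaining falls were Apoe (-5.10 ± 0.24), an apolipoprotein, Nebl (-4.90 ± 0.31), an actin-binding protein, C1qa, a complement component made by macrophages, and the globins Hbb-bs, Hbb-bt, Hba-a1 and Hba-a2. C1qa and the 4 globins are on the macrophage and erythroid marker lists, whose summed levels fell as given above, and the part of those cells was not tested.

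Genes of growth and division rose together. Of 23 tested S phase genes 19 rose and 1 fell, with a median of 2.26 beside 0.33 for all tested genes, and of 19 tested G2 and mitosis genes 18 rose and 0 fell, with a median of 2.07. Tyms, thymidylate synthase, was at 8.58, 8.31 and 8.71 TPM in naive and 91.2, 80.2 and 85.4 TPM in treated libraries. Ccna2, cyclin A2, was at 7.16, 7.56 and 10.7 TPM against 70.3, 78.3 and 72.0 TPM, and Cdk1, the mitotic kinase, at 8.25, 7.44 and 13.9 TPM against 103, 91.3 and 102 TPM. None of these 3 genes overlapped between groups. The 1 S phase gene lower was Mcm3, a subunit of the replicative helicase, at 12.5, 20.9 and 22.8 TPM against 8.49, 2.39 and 5.98 TPM. Its change of -1.66 ± 0.60 lost its call under 5 of 17 alternatives.

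Biosynthetic lists followed the same direction. Of 22 tested genes of cholesterol and fatty acid synthesis 20 rose and 0 fell, with a median of 2.03, among them Fdps, farnesyl diphosphate synthase, and Idi1. Idi1, isopentenyl diphosphate isomerase, was at 22.3, 13.9 and 21.2 TPM in naive and 166, 170 and 174 TPM in treated libraries. Of 22 tested proteasome subunits 21 rose and 0 fell (median 1.52), for example Psmd11 at 34.9, 19.7 and 23.9 TPM against 141, 167 and 153 TPM. Of 20 tested genes of endoplasmic reticulum chaperones and secretion 17 rose and 1 fell (median 1.80). Sdf2l1, a luminal cofactor of the chaperone BiP, was at 32.9, 18.2 and 17.1 TPM against 391, 423 and 376 TPM, a rise of 4.12 ± 0.26 (limma adjusted p = 3.19e-11). The 1 member lower was Dnajb9, a co-chaperone of the unfolded protein response, at 45.4, 34.3 and 36.2 TPM against 24.7, 22.6 and 25.1 TPM, and its call was lost under 6 of 17 alternatives.

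Among metabolic and ribosomal lists the transcripts that build ribosomes rose while those of ribosomal proteins did not. Of 22 tested genes of MYC targets and ribosome biogenesis 19 rose and 1 fell (median 1.51). The member that fell was Myc itself, at 115, 70.2 and 65.6 TPM in naive and 39.2, 39.7 and 47.0 TPM in treated libraries, a change of -0.94 ± 0.34 (limma adjusted p = 0.0296) that was no longer called without naive replicate 1 (adjusted p = 0.137). Srm, spermidine synthase, a MYC target, was at 29.8, 20.3 and 18.1 TPM against 162, 172 and 156 TPM. Of 37 tested cytosolic ribosomal protein genes 3 rose and 13 fell (median -0.29), and their summed share was 28.2% to 29.8% of naive and 22.2% to 22.8% of treated libraries. Of 24 nuclear genes of oxidative phosphorylation 18 rose and 0 fell (median 1.00). Under median-of-ratios rescaling 12 of these were higher and 1 lower (median 0.58). Of 13 mitochondrially encoded genes 0 rose and 1 fell (median -0.25). Of 16 tested glycolysis genes 10 rose and 0 fell (median 1.30), among them Ldha, lactate dehydrogenase A, at 17.7, 16.1 and 17.5 TPM against 83.7, 80.8 and 79.6 TPM. Of 21 genes of amino acid and one-carbon metabolism 13 rose and 0 fell (median 1.61), among them the amino acid transporter gene Slc7a5 (3.48 ± 0.46).

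**Figure D2:**
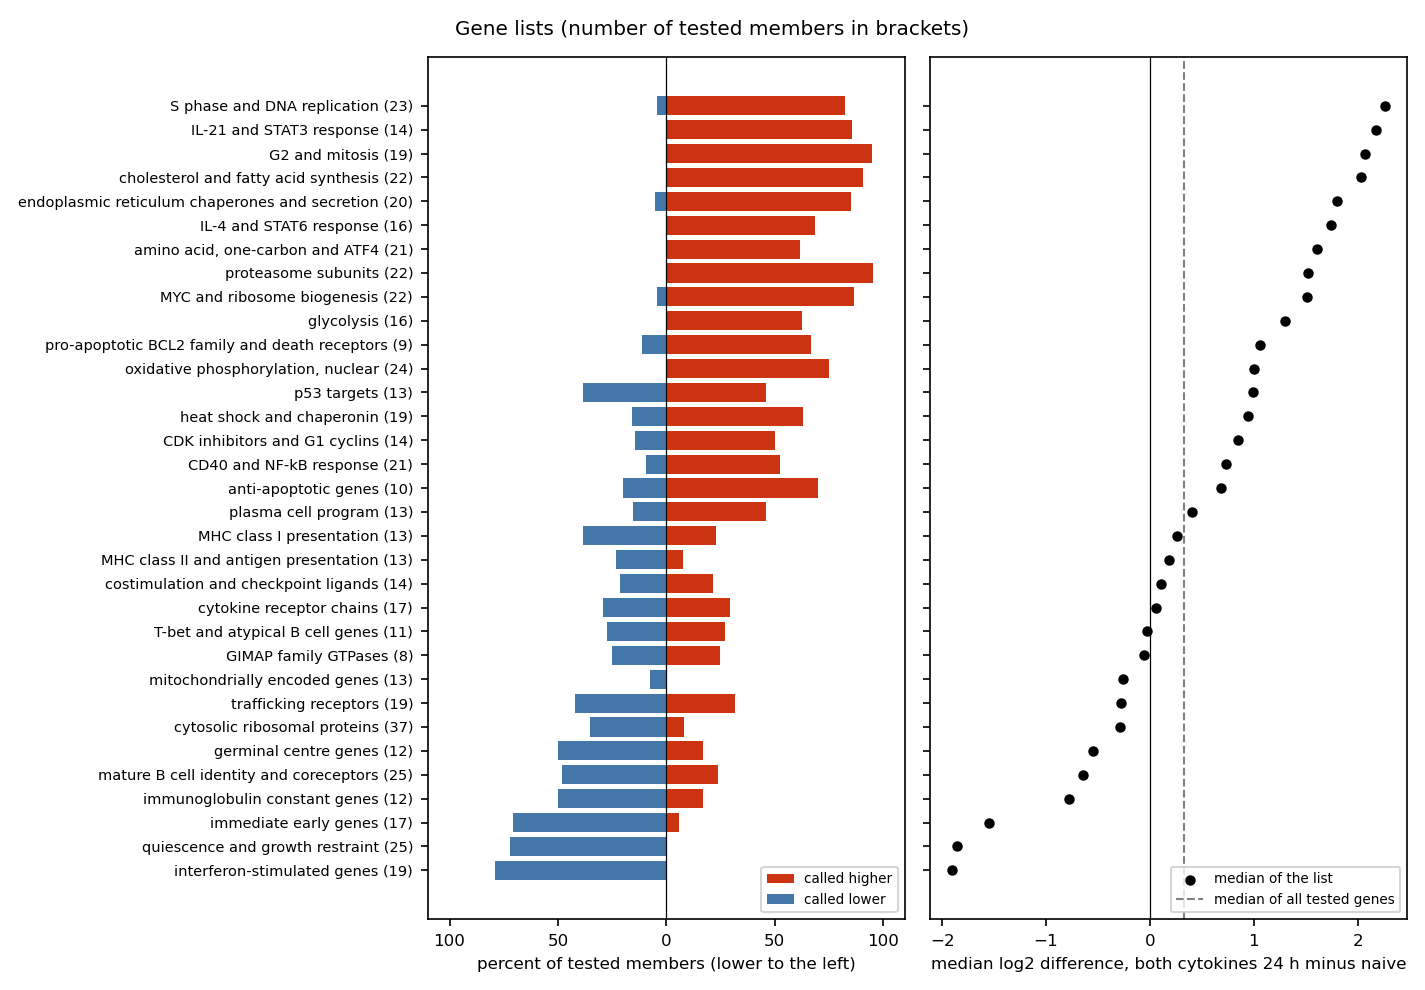
Left, the percent of each list's tested members called higher (red, to the right) or lower (blue, to the left) with both cytokines at 24 h than in naive cells; right, the median log2 difference of each list (points) with the median of all tested genes (dashed line, 0.33). Interferon-stimulated, quiescence and immediate early genes lie at the lower end, with medians of -1.91, -1.86 and -1.55, and S phase and IL-21 response genes at the upper end, with medians of 2.26 and 2.18.

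The lists of cytokine response genes rose against naive cells. Of 14 tested IL-21 and STAT3 response genes 12 rose and 0 fell (median 2.18). Of 16 tested IL-4 and STAT6 response genes 11 rose and 0 fell (median 1.74). Against anti-CD40 alone at 24 h, 12 of the IL-21 list were higher and 0 lower (median 1.77). In that comparison 8 of the IL-4 list were higher and 3 lower (median 0.71), the latter being Fcer2a, Ccl22 and Bcl2l1 (-2.55, -2.55 and -0.92). Over all tested genes 24.1% were called there, with a median of 0.09. Batf, an AP-1 family factor needed for class switching, was at 25.5, 22.0 and 23.9 TPM in naive and 182, 170 and 162 TPM in treated libraries. The receptor chain genes themselves were higher, Il4ra at 84.3, 48.4 and 43.8 TPM against 227, 240 and 232 TPM, and Il21r at 93.5, 57.5 and 50.6 TPM against 345, 345 and 335 TPM. Each was above its naive range in all 3 treated libraries. Cytokine receptor chains as a list were split, with 5 of 17 higher and 5 of 17 lower (median 0.05, and -0.09 and -0.10 under the 2 rescalings). Over all tested genes 32.0% were higher, so the number of receptors higher is near the background. Ifngr1, the ligand-binding chain of the interferon gamma receptor, was at 7.72, 16.5 and 16.1 TPM against 2.56, 2.69 and 1.33 TPM, and Il10ra, the IL-10 receptor chain, at 26.0, 17.9 and 26.7 TPM against 0, 0 and 2.39 TPM.

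Programs of the naive state were lower as groups. Of 25 tested quiescence and growth restraint genes 0 rose and 18 fell (72.0%, median -1.86). Tsc22d3, which encodes the glucocorticoid-induced leucine zipper protein, was at 90.5, 63.3 and 83.9 TPM in naive and 0.846, 2.79 and 2.78 TPM in treated libraries. Klf6, a zinc-finger transcription factor, was at 155, 146 and 152 TPM against 11.7, 12.4 and 12 TPM. Sesn1, a sestrin that restrains the growth kinase complex mTORC1, was at 71.1, 51.7 and 61.1 TPM against 4.33, 4.13 and 3.93 TPM. For all 3 genes every treated library was below every naive one. Foxo1, the forkhead factor of resting B cells, was at 40.0, 32.6 and 27.1 TPM against 19.5, 21 and 21 TPM and did not pass the test (-0.66 ± 0.30, limma adjusted p = 0.0811), although it was called under both rescalings.

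Of 19 tested interferon-stimulated genes 0 rose and 15 fell (78.9%, median -1.91), and of 17 tested immediate early genes 1 rose and 12 fell (median -1.55). Ifit3, an antiviral interferon-induced protein, was at 33.9, 18.6 and 33.5 TPM in naive and 0, 0.0318 and 0.03 TPM in treated libraries. Dusp1, a phosphatase of MAP kinases, was at 72.6, 50.5 and 55.1 TPM against 0.942, 2.18 and 1.19 TPM, and Nr4a1, an orphan nuclear receptor induced by antigen receptor signals, at 56.5, 41.1 and 35.5 TPM against 1.34, 0.874 and 1.08 TPM. None of these 3 genes was above 2.18 TPM in a treated library. The immediate early gene that rose was Egr2, a zinc-finger factor, at 1.26, 3.04 and 2.94 TPM against 20.7, 22.0 and 19.4 TPM. Directions of these lists were the same under both rescalings of the libraries, with 0 members higher for quiescence and interferon-stimulated genes and 1 for immediate early genes.

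Mature B-cell identity genes were mixed. Of 25 tested, 6 rose and 12 fell (median -0.64), beside 32.0% higher and 13.7% lower over all tested genes. Fcrl1, an Fc receptor-like surface protein of mature B cells, was at 211, 184 and 185 TPM in naive and 16.7, 17.1 and 12.7 TPM in treated libraries, and Ms4a1, which encodes CD20, at 644, 791 and 923 TPM against 317, 308 and 355 TPM. Pax5, the B-lineage transcription factor, was at 148, 124 and 95.1 TPM against 37.2, 38.1 and 31.5 TPM (-1.74 ± 0.38, limma adjusted p = 0.000649). Cd79b, a signalling chain of the antigen receptor, was at 1064, 1007 and 971 TPM against 564, 515 and 548 TPM. All 4 genes were lower in every treated library than in any naive one. Cd22, an inhibitory lectin of B cells, was at 249, 117 and 79.5 TPM against 324, 385 and 405 TPM (1.47 ± 0.48, limma adjusted p = 0.0153), a call lost without naive replicate 2 or 3. Fcer2a, the low-affinity IgE receptor CD23, was at 314, 159 and 114 TPM against 139, 155 and 152 TPM. Its groups overlapped and it was not called (limma adjusted p = 0.732). With anti-CD40 alone at 24 h it was higher than in naive cells (2.29, limma adjusted p = 0.00524). It was lower with both cytokines than with anti-CD40 alone (-2.55, limma adjusted p = 0.00205).

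Genes of the later B-cell fates went in both directions, beside 32.0% of all tested genes higher and 13.7% lower. Prdm1, which encodes the plasma-cell regulator BLIMP1, was at 0, 0.286 and 0.0644 TPM in naive and 2.45, 2.21 and 3.36 TPM in treated libraries (1.71 ± 0.21, limma adjusted p = 8.27e-07). Xbp1, the secretory-pathway factor of plasma cells, was at 2.74, 1.5 and 1.48 TPM against 15.9, 13.4 and 16.4 TPM. Both were higher with no overlap, at levels well under those of Pax5. Jchain, the joining chain of secreted IgM and IgA, fell from 93.9, 109 and 195 TPM to 10, 10.6 and 16.5 TPM. Of 13 tested plasma cell genes 6 rose and 2 fell (median 0.40), or 6 and 4 under both rescalings (medians 0.16 and 0.28). Bcl6, the germinal centre repressor, was at 21.9, 19.8 and 22.8 TPM against 20.0, 19.9 and 19.7 TPM, which did not pass the test (-0.10 ± 0.25, limma adjusted p = 0.762) and was called lower under median-of-ratios rescaling (-0.51, limma adjusted p = 0.0174). Bach2, a repressor of plasma-cell fate, was at 21.3, 15.4 and 16.7 TPM against 32.0, 32.3 and 37.4 TPM (0.90 ± 0.28), a call lost without naive replicate 2 (limma adjusted p = 0.0523) and without mitochondrial, ribosomal protein and pseudogene transcripts (limma adjusted p = 0.0604). Irf4, a factor of activated and plasma B cells, had no firm direction against naive cells (0.40 ± 0.33, limma adjusted p = 0.335). With anti-CD40 alone at 24 h it was higher than in naive cells (1.75, limma adjusted p = 0.000391). It was lower with both cytokines than with anti-CD40 alone (-1.35, limma adjusted p = 0.00398).

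Immunoglobulin constant genes changed by class. Ighg1 was at 4.57, 1.73 and 2.42 TPM in naive and 200, 201 and 206 TPM in treated libraries, a rise of 5.77 ± 0.42 (limma adjusted p = 3.05e-10). Ighe was at 0.193, 0.246 and 0.0738 TPM against 2.55, 1.30 and 2.09 TPM. These were the 2 of 12 constant genes that rose, and their groups did not overlap. Another 6 fell (median of the list -0.78), among them the lambda light chain gene Iglc2 at 1458, 2321 and 2820 TPM against 659, 557 and 525 TPM, whose reads may be shared with its near-identical copy Iglc3, and Igha at 3.08, 4.97 and 2.83 TPM against 0.567, 0.767 and 0.547 TPM. With IL-4 but no IL-21 at 24 h, Ighe was at 43.1, 14.6 and 11.2 TPM, and the interaction of the cytokines, the log2 difference with both less the sum of the differences with each alone, was -2.68 ± 0.43 for it (limma adjusted p = 0.000435). Under median-of-ratios rescaling the Ighe interaction was -3.12 (limma adjusted p = 1.24e-06), and the IL-4 libraries it uses spread widely. Across all genes 705 of 12147 had such an interaction at 24 h (5.80%).

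Trafficking and antigen presentation genes went in both directions. Of 19 tested trafficking receptors 6 rose and 8 fell (median -0.28), beside 32.0% higher and 13.7% lower over all tested genes. S1pr1, the sphingosine-1-phosphate receptor for exit from lymphoid organs, was at 123, 104 and 89.9 TPM in naive and 10.9, 9.68 and 10.2 TPM in treated libraries. Ccr7, the receptor that guides cells to the T-cell zone, was at 82.2, 52.6 and 41.7 TPM against 4.77, 4.73 and 3.94 TPM, and Cxcr4, the CXCL12 receptor, at 274, 171 and 158 TPM against 8.62, 12.3 and 9.60 TPM. All 3 receptors were lower in every treated library. Cd44, a hyaluronan receptor, rose from 18.7, 14.4 and 13.8 TPM to 165, 182 and 188 TPM. Of 13 genes of MHC class II presentation 1 rose and 3 fell, with a median of 0.19 that turned to -0.24 under median-of-ratios rescaling and to -0.15 without mitochondrial, ribosomal protein and pseudogene transcripts. H2-Aa, the alpha chain of I-A, was at 475, 839 and 704 TPM against 290, 226 and 263 TPM. Also lower were H2-Oa and H2-Ob (-2.29 and -1.60), and the member higher was Ciita (1.05 ± 0.32, limma adjusted p = 0.00927). The class II genes H2-Ab1, H2-Eb1 and Cd74 were not called (0.61, 0.27 and 0.48), so the fall of H2-Aa does not stand for the list.

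Costimulatory genes and survival genes also held members of both directions. Of 14 tested costimulation and checkpoint ligands 3 rose and 3 fell (median 0.11), which is 21.4% each, beside 32.0% and 13.7% of all tested genes. Under both rescalings 3 were higher and 7 lower (medians -0.27 and -0.19). Cd83, a marker of activated antigen-presenting cells, was at 142, 153 and 192 TPM in naive and 824, 704 and 795 TPM in treated libraries, while Icosl, the ligand of the T-cell costimulator ICOS, was at 99.5, 62.1 and 44.8 TPM against 3.56, 3.05 and 3.69 TPM. Neither gene overlapped between groups. Of 10 anti-apoptotic genes 7 rose and 2 fell (median 0.69), and this count fell to 3 higher and 2 lower under median-of-ratios rescaling. Bcl2 was at 31.7, 27.4 and 26.3 TPM against 4.37, 4.98 and 5.04 TPM, and Bcl2l1, which encodes BCL-xL, at 0.568, 0.877 and 0.474 TPM against 2.81, 3.05 and 5.62 TPM. The 2 related survival genes thus changed in opposite directions.

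The remaining lists held members in both directions, and their counts stand beside 32.0% of all tested genes higher and 13.7% lower. Of 14 CDK inhibitors and G1 cyclins 7 rose and 2 fell (median 0.85). Ccnd2, cyclin D2, was at 3.42, 0.197 and 0.901 TPM in naive and 42, 55.5 and 66.5 TPM in treated libraries, and Cdkn1b, the cell-cycle inhibitor p27, at 66, 53.8 and 52 TPM against 15.1, 14 and 15.9 TPM. The groups did not overlap for either gene. Of 19 heat shock and chaperonin genes 12 rose and 3 fell (median 0.94): Hspd1, the mitochondrial chaperonin HSP60, was at 14.2, 11.5 and 10.9 TPM against 127, 176 and 144 TPM, and the members that fell were Hspa1b, Hspa1a and Dnajb1 (-1.11 ± 0.18), a co-chaperone of HSP70. Of 12 germinal centre genes 2 rose and 6 fell (median -0.54), with Mef2b, a transcription factor upstream of Bcl6, at 9.51, 4.36 and 7.65 TPM against 27.7, 29.9 and 30.4 TPM and Gcsam, a germinal centre signalling protein, at 4.52, 4.22 and 5.55 TPM against 0.258, 0.17 and 0.139 TPM. Of 8 GIMAP family GTPases, which act in lymphocyte survival, 2 rose and 2 fell, with a median of -0.05 that became 0.05 without naive replicate 1. Under median-of-ratios rescaling 1 was higher and 4 lower (median -0.47), and without mitochondrial, ribosomal protein and pseudogene transcripts 2 were higher and 4 lower (median -0.39). Gimap4 was at 322, 210 and 226 TPM against 845, 806 and 797 TPM, and its neighbour Gimap7 at 97.3, 85.9 and 89.3 TPM against 27.6, 22.5 and 29.2 TPM, so members of 1 gene cluster changed in opposite directions. Of 21 CD40 and NF-kB response genes 11 rose and 2 fell (median 0.73), of 9 pro-apoptotic genes 6 rose and 1 fell (median 1.06), and of 13 p53 targets 6 rose and 5 fell (median 0.99). The list of T-bet-linked and atypical B-cell genes had 3 of 11 higher, near the share over all genes, and 3 of 11 lower (median -0.03), or 5 lower under both rescalings, and of 13 genes of MHC class I presentation 3 rose and 5 fell, with a median of 0.26 that turned to -0.16 and -0.08 under the 2 rescalings.

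**Figure D3:**
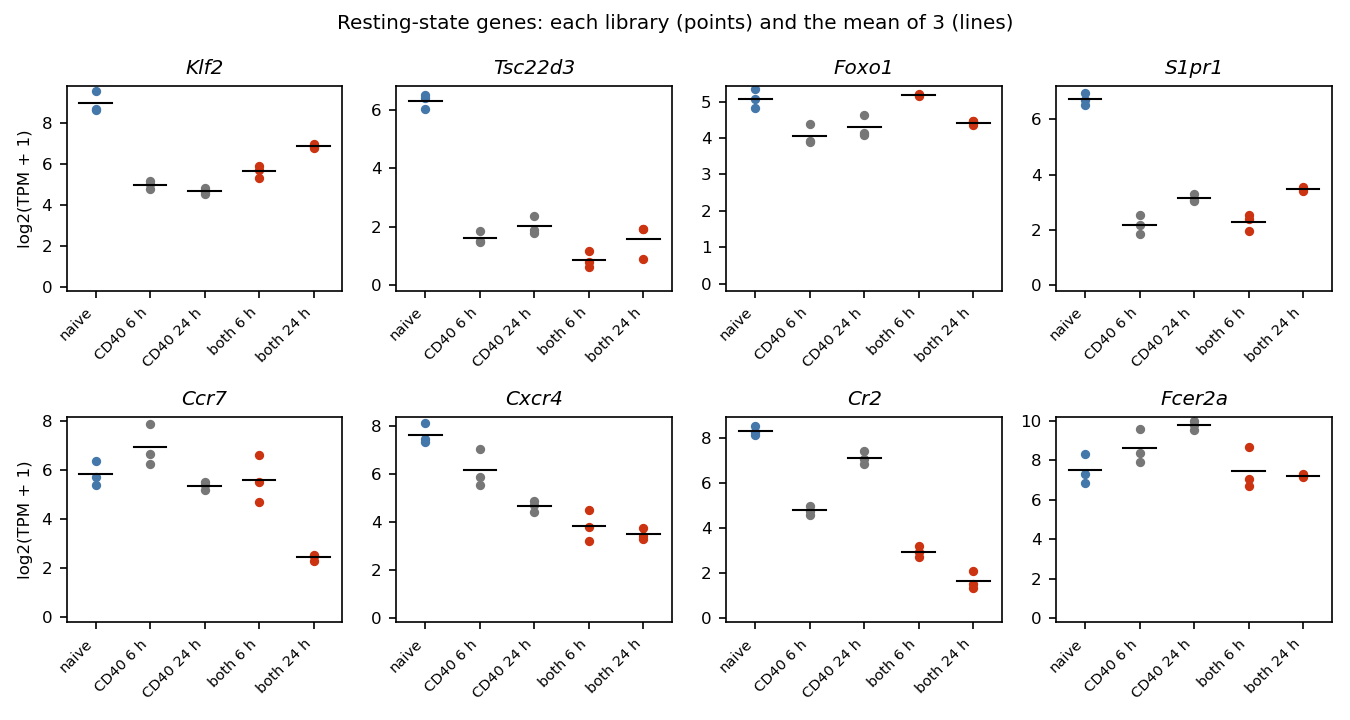
Levels of 8 resting-state genes on log2(TPM + 1) axes in naive cells (blue), with anti-CD40 alone at 6 h and 24 h (grey) and with both cytokines at 6 h and 24 h (red), 1 point per library and a line at the mean of 3. Klf2 with both cytokines at 24 h lies between the naive and anti-CD40 levels, whereas Cr2 and Ccr7 are lower with both cytokines at 24 h (means of 2.22 and 4.48 TPM) than with anti-CD40 alone (140 and 40.6 TPM).

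Which naive-state losses under anti-CD40 were made good by the cytokines was asked next. With anti-CD40 alone for 24 h, 3252 genes differed from naive cells (26.8%), and 2924 (24.1%) differed between both cytokines and anti-CD40 alone at 24 h. A loss was a gene called lower there, at least 2-fold, with a naive mean of at least 5 TPM, and 421 genes met this. Without the 5 TPM condition 4.72% of tested genes were lower by the 2-fold rule. A loss was restored if it was called higher, at least 2-fold, with both cytokines than with anti-CD40 alone at 24 h, and deepened if called lower, at least 2-fold. There were 54 restored losses (12.8%), 59 deepened ones (14%) and 308 that were neither (73.2%). Among all 6936 genes with a naive mean of at least 5 TPM, 6.69% were higher and 6.44% lower by that rule in the same comparison, and among all tested genes 6.94% and 5.58%. Because the anti-CD40 libraries both define the losses and enter the restoring difference, these counts are descriptions and no test of them is given. Without naive replicate 1 the losses numbered 386, of which 50 were restored and 58 deepened. Median-of-ratios rescaling gave 709 losses and 108 deepened ones, and leaving out mitochondrial, ribosomal protein and pseudogene transcripts gave 100 deepened ones, so the near balance of restored and deepened losses holds only for some scalings.

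Of the 421 losses, 350 were called lower with both cytokines than in naive cells (83.1%, beside 13.7% of all tested genes), 24 had a 95% interval within 1 log2 unit of the naive level, 12 were above it and 35 were unresolved. The losses were defined against the same 3 naive libraries, so this share is a description. The median difference from naive cells was -1.73 with anti-CD40 alone and -1.94 with both cytokines. The losses include 8 of the 10 erythroid and platelet markers and 5 of the macrophage markers, of which 0 were restored. By list, 10 of 19 tested interferon-stimulated genes were losses and 0 restored. Of 17 tested immediate early genes 11 were losses and 2 restored, and of 25 tested quiescence genes 9 were losses and 1 restored. Over all 421 losses 12.8% were restored, and the counts per list are too small to set a list apart from that share. The immediate early genes restored were Jun and Jund, and the quiescence gene was Klf2.

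**Figure D4:**
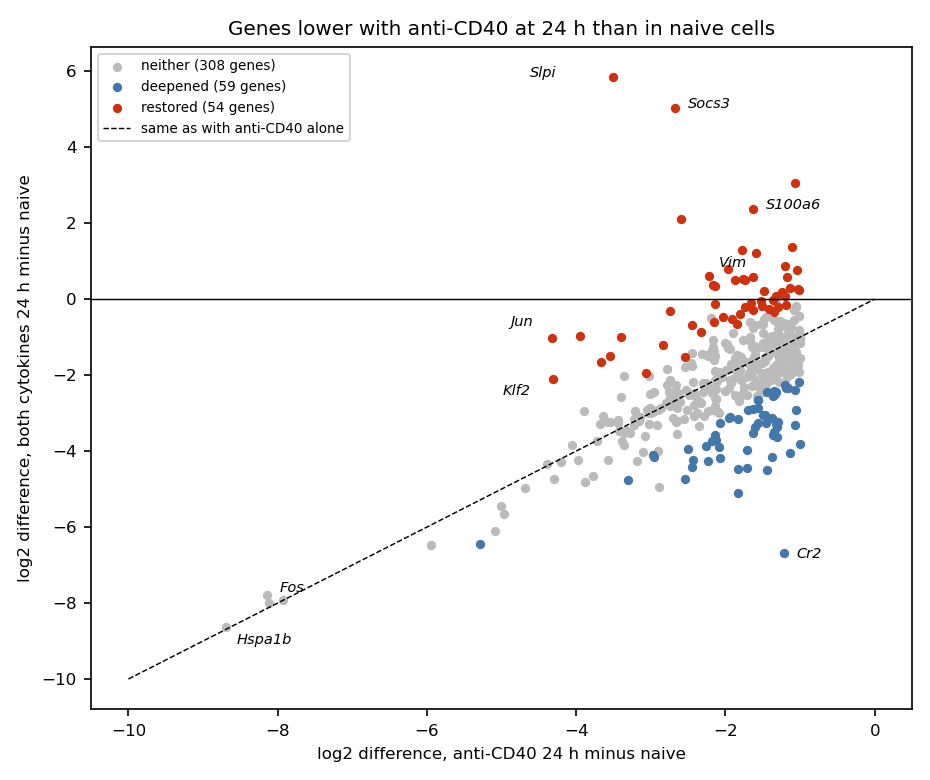
Each point is 1 of the 421 losses, with its log2 difference from naive cells under anti-CD40 alone at 24 h on the horizontal axis and under both cytokines at 24 h on the vertical axis. Restored losses (red, 54 genes) lie above the dashed line of equal change, deepened losses (blue, 59 genes) below it, and 12 restored genes, among them Slpi and Socs3, were called above the naive level.

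Of the 54 restored losses, 12 ended above the naive level, 19 near it, 10 still below it and 13 were unresolved. Socs3 (ENSMUSG00000053113, chr11:117966079-117970047), the feedback inhibitor induced by STAT3, was at 19.4, 8.47 and 11.4 TPM in naive cells, 1.14, 0.551 and 1.77 TPM with anti-CD40 alone and 456, 434 and 414 TPM with both cytokines. It was 7.70 ± 0.27 higher with the cytokines than without (limma adjusted p = 3.75e-15) and 5.02 ± 0.27 above naive cells. Slpi followed the same course, at 0.154, 0 and 0.0708 TPM with anti-CD40 alone, and was 9.35 ± 0.32 higher with both cytokines (limma adjusted p = 1.62e-15). In both genes the 3 groups were fully separated.

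Below is the 250-base window before the Socs3 start site on the minus strand, chr11:117969367-117969616 in GRCm38.p6 from the RefSeq promoter table, shown because this gene had the largest restoring difference among losses that carry a STAT-type motif there. Capitals mark TTCNNNGAA, which begins 154 bases before that RefSeq start site. The window lies within the gene span given above, which is from GENCODE, so the RefSeq and GENCODE starts differ.
Socs3: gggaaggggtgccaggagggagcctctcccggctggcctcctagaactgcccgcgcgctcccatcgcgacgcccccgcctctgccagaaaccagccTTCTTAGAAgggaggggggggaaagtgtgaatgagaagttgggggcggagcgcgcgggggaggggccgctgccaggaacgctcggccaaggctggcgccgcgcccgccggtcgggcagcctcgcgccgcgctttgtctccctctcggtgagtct

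The motifs searched were TTCNNNGAA and the same motif with a 4-base spacer in place of NNN, each its own reverse complement so that both strands are covered, in windows from 250 bases before to 50 after the start site. Of the 54 restored losses 43 had a window in the table, and 4 of these held either motif (9.30%). The share was 52 of 275 for losses not restored (18.9%), 10 of 46 for deepened losses (21.7%), 1208 of 8438 for tested genes (14.3%) and 4483 of 27025 for all promoters (16.6%). The restored share is thus not above that of all promoters. The other 3 restored genes with a match, named after their values were seen, are printed with 10 bases on either side, Lgals3 on the plus strand at chr14:47373612-47373641 and, overlapping it, chr14:47373625-47373654, Gimap3 on the minus strand at chr6:48770838-48770866 and Frat2 on the minus strand at chr19:41848177-41848206.
Lgals3 first: tcactgccatTTCTGCGGAAggcttcaggt
Lgals3 second: tgcggaaggcTTCAGGTGAAggaattaggg
Gimap3: agcaccccttTTCAGAGAAactcatgtac
Frat2: cccctaagtcTTCTAGCGAAcgtctccccc

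The other restored genes that ended above naive cells included surface, cytoskeletal and cell-cycle genes. Ffar2, a receptor for short-chain fatty acids, was at 15.4, 11.4 and 8.43 TPM in naive cells, 0.646, 1.5 and 1.10 TPM with anti-CD40 alone and 47.2, 54.9 and 55.5 TPM with both cytokines. S100a6, a calcium-binding protein, was at 36.5, 35.0 and 19.9 TPM, then 9.72, 8.36 and 8.61 TPM, and 177, 151 and 148 TPM. Cdkn2d, the cyclin-dependent kinase inhibitor p19INK4d, was at 50.8, 33.8 and 37.2 TPM, then 11.4, 8.10 and 13.9 TPM, and 102, 105 and 94.4 TPM. Each of these went below the naive range with anti-CD40 and above it with the cytokines. St6gal1, the sialyltransferase that makes the ligand of CD22, was at 85.3, 57.5 and 50.2 TPM, then 17.2, 21.5 and 22.3 TPM, and 137, 154 and 150 TPM (2.80 ± 0.31 between the last 2 groups). Auh, a mitochondrial enzyme of leucine breakdown (4.11 ± 0.31), and S1pr3, a sphingosine-1-phosphate receptor of marginal zone B cells (2.75 ± 0.32), were also higher with both cytokines than with anti-CD40 alone. The S1pr3 difference from naive cells was 0.79 (limma adjusted p = 0.0491) and was not called under either rescaling (0.41 and 0.52, limma adjusted p = 0.126 and 0.16), nor without naive replicate 2 or 3. Auh (chr13:52835119-52929681) lies at lower coordinates than Nfil3 on the same chromosome, and both were high with IL-4 alone, Auh at 27.2, 22.5 and 15 TPM.

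Other losses were restored to about the naive level or part of the way. Jund, an AP-1 subunit, was at 1221, 730 and 648 TPM in naive cells, 200, 159 and 197 TPM with anti-CD40 alone and 1151, 1057 and 1012 TPM with both cytokines, which left a difference of 0.36 from naive cells with a 95% interval of -0.19 to 0.92. Vim, which encodes the intermediate filament vimentin, was at 371, 211 and 222 TPM, then 48.9, 52.5 and 63.8 TPM, and 359, 446 and 392 TPM. Cd86, the costimulatory ligand of CD28, was at 11, 10.2 and 11.2 TPM, then 1.77, 2.91 and 3.15 TPM, and 15.3, 15.7 and 16.4 TPM. The treated libraries overlapped the naive range for Jund and Vim and lay above it for Cd86, where the difference from naive cells was not called (limma adjusted p = 0.0568). Jun was at 265, 160 and 150 TPM, then 8.45, 7 and 9.72 TPM, and 89.1, 93.7 and 87.8 TPM, and stayed below naive cells (-1.03 ± 0.29, limma adjusted p = 0.0062). Wfdc17, a small secreted whey acidic protein, was at 16.4, 15.9 and 19.2 TPM, then 0.342, 0.208 and 0 TPM, and 10, 7.01 and 7.91 TPM. Klf2, the zinc-finger factor of quiescence and of S1pr1 expression, was at 764, 419 and 401 TPM, then 23.8, 22.5 and 27.2 TPM, and 124, 112 and 116 TPM, still -2.10 ± 0.32 below naive cells.

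**Figure D5:**
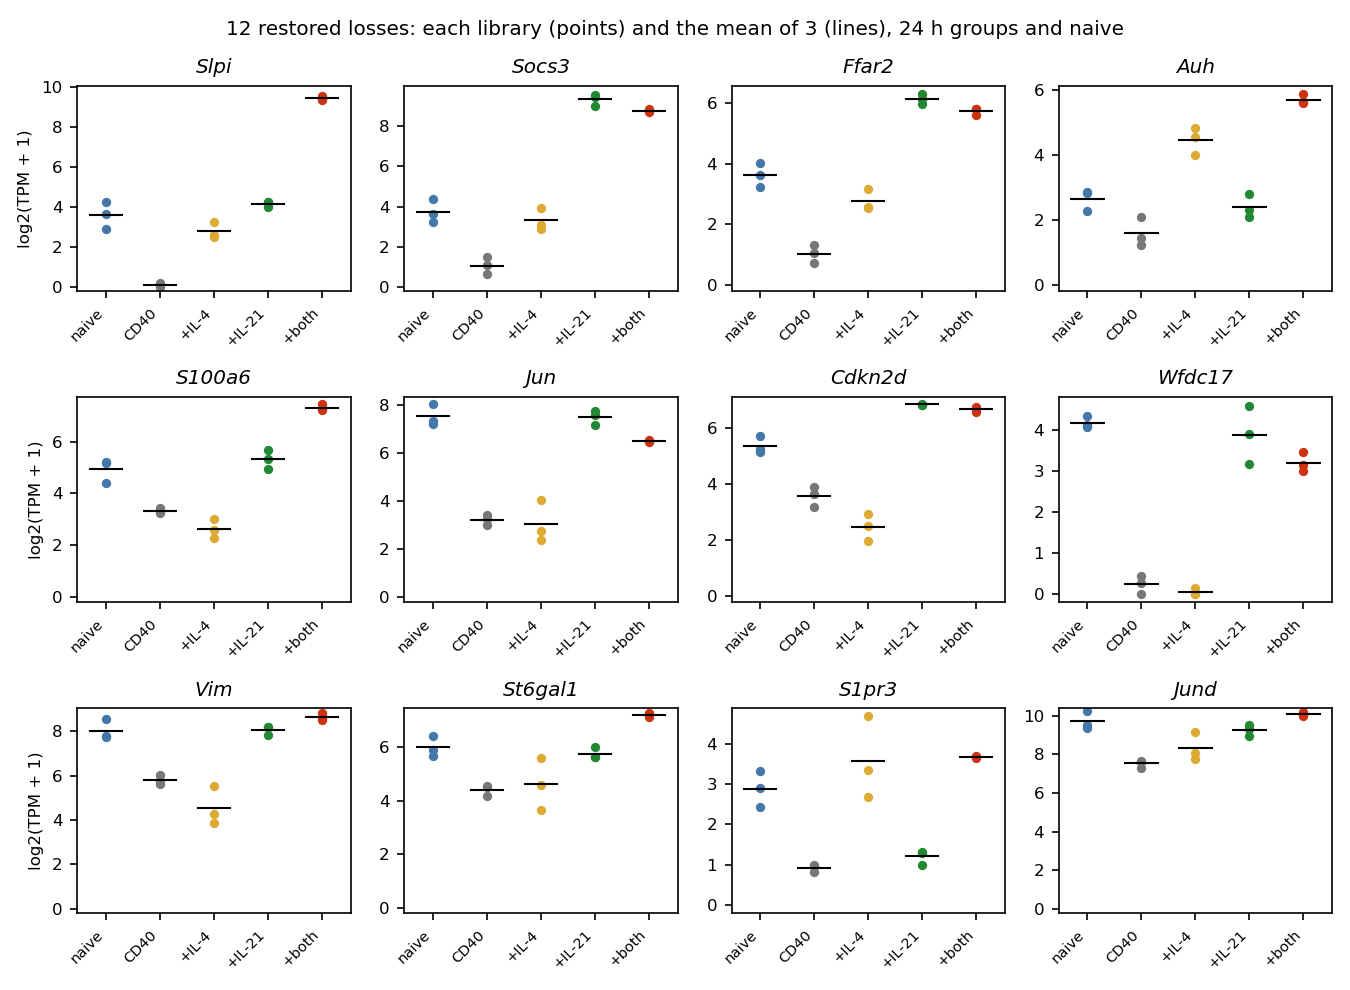
Levels of the 12 named restored losses on log2(TPM + 1) axes in naive cells and, at 24 h, with anti-CD40 alone, with added IL-4, with added IL-21 and with both, 1 point per library and a line at the mean of 3. Socs3, Jun, Cdkn2d and Vim are high with IL-21 alone (means of 653, 184, 113 and 271 TPM), S1pr3 and Auh are higher with IL-4 alone (13.2 and 21.6 TPM), and Slpi reaches 701 TPM with both against 6.08 and 17.1 TPM with 1 cytokine.

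The restored losses were next set beside the single-cytokine groups, which share the anti-CD40 libraries with the restoring comparison. By the same rule, 25 of the 54 were higher with IL-21 only (46.3%) and 4 with IL-4 only (7.41%). Another 5 were higher with each of them alone (9.26%) and 20 with neither alone (37.0%). Over all tested genes 8.28% were higher by this rule with IL-21 and 2.79% with IL-4. These backgrounds also count genes higher with the other cytokine, so they are not matched to the classes of 1 cytokine only. The median difference of the 54 from anti-CD40 alone was 1.25 with IL-21, -0.13 with IL-4 and 1.76 with both. Over all tested genes these medians were 0.23, -0.31 and 0.09. The anti-CD40 and IL-4 libraries spread widely, and Nfil3 stood at 168, 66.2 and 48.3 TPM in them. The interaction of the cytokines was called higher for 16 of the 54 (29.6%) and lower for 5 (9.26%). With median-of-ratios rescaling they numbered 17 and 7. The shares were 15.4% and 2.61% of all 421 losses and 3.33% and 2.48% of all tested genes, whose median interaction was 0.19. The libraries with both cytokines and with anti-CD40 alone chose the 54 genes and also enter the interaction. These shares are thus in part set by that choice and are descriptions. Slpi was at 8.41, 5.13 and 4.71 TPM with IL-4 alone and 18.1, 15.2 and 18 TPM with IL-21 alone, with an interaction of 2.59 ± 0.45 (limma adjusted p = 0.001) that depends on the pseudocount, since a pseudocount of 0.1 gave 0.15 (limma adjusted p = 0.929). S100a6 was at 7.06, 4.93 and 3.88 TPM with IL-4 alone and 50.5, 29.7 and 39.0 TPM with IL-21 alone, with an interaction of 2.68 ± 0.34 (limma adjusted p = 4.13e-05). The level with both cytokines exceeded that with either alone in every library of these 2 genes. Socs3 had an interaction of -2.81 ± 0.39, with 707, 748 and 503 TPM with IL-21 alone.

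Bcl6, not a restored loss, also had an interaction above 0. It was at 20.2, 20.1 and 27.8 TPM with anti-CD40 alone and 5.84, 2.29 and 1.35 TPM with IL-4 alone. With IL-21 alone it was at 29.6, 36.9 and 23.7 TPM. With both it was at 20, 19.9 and 19.7 TPM (interaction 2.09 ± 0.36, limma adjusted p = 0.000876). Under median-of-ratios rescaling the interaction was 1.92 (limma adjusted p = 2.37e-05). The spread of the IL-4 libraries given above enters this value too.

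Losses that were not restored included the largest falls, and some went further down with the cytokines. Fos was at 0.0937, 0.13 and 0.0235 TPM with anti-CD40 alone, unlike its partner genes Jun and Jund, and differed by 0.12 ± 0.27 with both cytokines (limma adjusted p = 0.799). S1pr1 was at 7.57, 7.19 and 8.87 TPM with anti-CD40 alone and differed by 0.35 ± 0.27 with both cytokines (limma adjusted p = 0.397), although Klf2 was restored in part. Hspa1b, Hspa1a and the globin Hba-a2 likewise did not pass the test between anti-CD40 alone and both cytokines. Cr2 was at 134, 116 and 171 TPM with anti-CD40 alone, 12.8, 5.03 and 3.76 TPM with IL-4, 20.2, 30.9 and 20.2 TPM with IL-21 and 3.29, 1.49 and 1.86 TPM with both. It was the deepened loss with the largest further difference, -5.48 ± 0.31 (limma adjusted p = 1.04e-11). Of the 59 deepened losses 23 were lower by the rule with IL-4 only and 6 with IL-21 only. A further 27 were lower with each of them alone and 3 with neither alone. Over all tested genes 14.2% were lower with IL-4 and 3.44% with IL-21, each counted whatever the other cytokine did.

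Gains under anti-CD40 were treated in the mirrored way. Of 953 genes called at least 2-fold higher with anti-CD40 than in naive cells, with a mean of at least 5 TPM under anti-CD40, 128 were reversed by both cytokines (13.4%) and 88 extended (9.23%), beside 5.58% lower and 6.94% higher of all tested genes by the same rule. The anti-CD40 libraries both define the gains and enter the difference with both cytokines, so these counts are descriptions and no test of them is given. The shares over all tested genes carry no 5 TPM condition. Under each of the 2 rescalings 47 gains were extended. Gains of that size without the 5 TPM condition made up 9.71% of tested genes. Cd36, a fatty acid translocase and scavenger receptor, was at 33.7, 21.2 and 32.2 TPM in naive cells, 160, 165 and 164 TPM with anti-CD40 and 2.94, 1.19 and 2.87 TPM with both cytokines. Il9r, the IL-9 receptor, was at 30.9, 19.3 and 15.6 TPM, then 185, 146 and 222 TPM, and 4.8, 5.79 and 4.64 TPM. Il12a, the p35 subunit of IL-12 and IL-35, was at 12.9, 10.2 and 11.2 TPM, then 43.2, 35.7 and 45.6 TPM, and 1.72, 0.852 and 1.79 TPM. For these 3 genes anti-CD40 and both cytokines lay on opposite sides of the naive range. Fam129c (-4.99 ± 0.28), Nxpe2 and Ms4a6b were the other named reversed gains.

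A set of losses defined in other libraries was examined too. With anti-CD40 alone at 6 h, 3626 genes differed from naive cells (29.9%), and 833 met the loss rule, beside 8.99% of tested genes lower by the 2-fold rule alone. The libraries that define them do not enter the difference between both cytokines and anti-CD40 at 24 h. By the 2-fold rule 70 of the 833 were higher with the cytokines at 24 h (8.40%) and 190 lower (22.8%), beside 6.69% and 6.44% of all genes with a naive mean of at least 5 TPM. The share higher was near the background, and the share lower was above it. The median difference of these genes was -0.35, beside 0.09 for all tested genes. Without naive replicate 1, 62 were higher and 165 lower.

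The 6 h libraries show the earlier course. Of the 54 restored losses, 39 were lower by the 2-fold rule at 6 h with anti-CD40 (72.2%) and 29 with both cytokines (53.7%), beside 8.99% and 13.8% of all tested genes. Among losses that were neither restored nor deepened the shares were 63.3% and 68.2%, and among deepened losses 93.2% and 96.6%, all against the naive libraries that define the losses. With both cytokines 31 of the 54 were higher by the rule at 24 h than at 6 h (57.4%, beside 14.3% of all tested genes), and nothing is read from this since the 24 h libraries also chose the restored genes. S100a6 was at 4.26, 7.80 and 5.68 TPM at 6 h with both cytokines, below its 24 h level of 148 to 177 TPM. Vim was at 115, 89.2 and 103 TPM and Cdkn2d at 9.32, 9.63 and 8.36 TPM at 6 h. Socs3 was different, at 503, 430 and 363 TPM at 6 h, already in the range of its 24 h level. Satb1, a chromatin organiser named here after its values were seen, was at 48.1, 30.3 and 28.3 TPM in naive cells, 283, 276 and 247 TPM with both cytokines at 6 h and 36.9, 36.8 and 36.5 TPM at 24 h, so that its near-naive level at 24 h followed a peak.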

How the data were processed

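The submitters' processing notes name Salmon 1.9.0 and mouse GRCm38 (mm10). The authors deposited TPM values for 35604 genes, and further steps are not given in the sources used here. TPM keeps no depth, so depth per library is unknown. Sums were 766384 to 825365 TPM per library. GENCODE M21 named 35301 gene IDs. A gene was tested if 3 or more of the 27 libraries had 1 TPM or more (12147 genes). Values were used as log2(TPM + 1), which understates changes of low genes. One mean per group (3 libraries each) was fitted to 27 libraries with limma 3.58.1 in R 4.3.3 (trended variance, 18 residual degrees of freedom), so the spread is shared between groups. The script was tested on simulated data.

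Named genes are the 12 largest rises and falls and the 12 largest restored losses with no overlap between replicates and 5 TPM or more as the mean of the higher group, 6 losses not restored, 6 reversed gains, up to 3 called members per list and direction, and 22 panel genes, passing over unnamed models, pseudogenes and immunoglobulin segments. The members, the 33 gene lists and 8 marker lists were chosen with earlier results of these data known. Lists are described by counts and medians, with no set test. Alternatives covered pseudocount, filter, scaling, variance trend, libraries fitted and replicate block. Each replicate was also left out in turn in the naive, anti-CD40 24 h and both-cytokine 24 h groups. No library with a single cytokine and no 6 h library was left out, so results that use those were not checked in this way. Results for some named genes are not reported here.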

Additional observations from a re-analysis of the deposited data

Results flagged for a closer look

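For 8 of the 12 named restored losses, the difference between both cytokines and anti-CD40 alone was larger at 24 h than at 6 h, by the limma test of the change itself (adjusted over all tested genes). This excess was 5.27 on the log2 scale for Slpi, 1.43 for Socs3, 1.78 for Ffar2, 2.35 for Auh, 5.36 for S100a6, 1.71 for Cdkn2d, 2.72 for St6gal1 and 1.33 for Jund. The genes were chosen for their large difference at 24 h in the same libraries, so a larger value at 24 h is in part built into the choice, and the count is a description. With a pseudocount of 0.1 the value for Ffar2 was 0.53 (limma adjusted p = 0.562). The calls of Socs3 and Jund were lost with no filter (limma adjusted p = 0.0587 and 0.0783) and on leaving out single libraries, for example anti-CD40 24 h replicate 2 (limma adjusted p = 0.0871 and 0.09). The larger difference can come from either arm: Socs3 with both cytokines had a mean of 432 TPM at 6 h and 435 TPM at 24 h, while with anti-CD40 alone it had 4.58 TPM at 6 h and 1.15 TPM at 24 h. S100a6 with both cytokines had 5.91 TPM at 6 h, below its 16.3 TPM with anti-CD40 alone, and 159 TPM at 24 h.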

How the results depend on the processing

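Over 17 alternatives, 163 of the 179 called differences of named genes stayed called in the same direction, 16 lost the call under at least 1 alternative and 0 reversed. Of uncalled differences, Irf4 turned to -0.003 under median-of-ratios rescaling (limma adjusted p = 0.996) and Fcer2a to 0.14 without naive replicate 1 (limma adjusted p = 0.878), in a range from -0.59 to 0.14 when single libraries were left out. Median-of-ratios rescaling gave 2833 genes lower than naive, 709 losses, 108 deepened losses and 47 extended gains. Leaving out mitochondrial, ribosomal protein and pseudogene transcripts gave 100 deepened losses, 47 extended gains and 291 of the 6 h losses lower. Fitting only the groups compared gave 2167 genes for anti-CD40 against naive at 24 h. The causes were not tested. Restored losses numbered 44 to 71 over all alternatives. Single libraries were left out only from the naive, anti-CD40 24 h and both-cytokine 24 h groups. Leaving out 1 library at a time gave 4708 to 5788 genes called (3147 to 4348 higher, 1437 to 1664 lower), 2196 to 3774 for anti-CD40 against naive, 2250 to 3109 for both cytokines against anti-CD40, 362 to 469 losses, 44 to 66 restored, 47 to 64 deepened, and 61 to 74 higher and 150 to 206 lower of the 6 h losses. The labels do not say if replicate numbers pair the libraries. Deviations of same-numbered naive and treated libraries from their group means correlated at -0.045, -0.022 and 0.051. Those of naive and anti-CD40 24 h libraries correlated at 0.01, 0.137 and -0.201. With 3 libraries per group these values do not settle if the libraries are paired. With the replicate block 5849 genes were called and 56 losses restored, beside 5553 and 54 without it. Depth is unknown, so the precision of values near 0 cannot be given.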
